A study of Homo sapiens with 6 samples.

Results

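The mevalonate pathway to squalene was described in HCCLM3 cells, a human hepatocellular carcinoma (HCC) line, through the 9 enzyme genes *ACAT2*, *HMGCS1*, *MVK*, *PMVK*, *MVD*, *IDI1*, *FDPS*, *FDFT1* and *GGPS1*. They were taken by symbol from a table of 20381 genes, and all 9 passed the filter on low counts, which left 11958 genes for testing. The genes were chosen by their place in the pathway, with the measured fold changes of PON1-OE against NC already known. The changes below are therefore a description of these genes and support nothing beyond themselves.

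RNA-seq of poly(A) RNA had been carried out on 3 PON1-OE and 3 NC libraries to look for what changes in expression when *PON1*, a lipoprotein-associated paraoxonase made by the liver, is raised. PON1-OE cells carried a lentivirus with the *PON1* coding sequence and NC cells an empty vector lentivirus, both in the same line and medium and both selected with puromycin. The paper describes stable lines, whereas the design text of the series gives lysis at 24 h after transfection and 15% serum, a higher serum content than the paper's. Neither source states a clone number or whether the libraries of a group came from separate cultures, so every SD and p-value measures the spread between these libraries, which may be technical.

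Cells build cholesterol and all isoprenoids from acetyl-CoA through this pathway. ACAT2 joins acetyl-CoA units, HMGCS1 adds a further one to give HMG-CoA, and after reduction to mevalonate the kinases MVK and PMVK and the decarboxylase MVD yield isopentenyl diphosphate. IDI1 isomerizes it, FDPS assembles farnesyl diphosphate, and from there FDFT1 commits carbon to squalene and sterols while GGPS1 makes geranylgeranyl diphosphate for protein prenylation. Most genes of the pathway are known targets of the sterol-sensing factor SREBP2, which acts with NF-Y, a factor that binds the letters CCAAT, and with Sp1, which binds GC-rich boxes. The step from HMG-CoA to mevalonate was not analysed here.

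The stretches of DNA before the starts of these genes are shown because this group is a textbook case of shared promoter boxes. RefSeq (GRCh38.p14) promoters matched 7 of the 9 genes, all but *ACAT2* and *FDFT1*, with 12 annotated starts. The 4 stretches below lie within the 250 bases before a start and outside every exon of GENCODE v29, that is, intergenic and just upstream of the first exon. *HMGCS1* and *FDPS* are shown as the genes that passed the test, *MVD* and *IDI1* as the other members with such an exon-free stretch around CCAAT boxes. Capitals mark each complete CCAAT box (ATTGG where it reads on the other strand), and sequences run 5′ to 3′ on the gene's strand.
HMGCS1: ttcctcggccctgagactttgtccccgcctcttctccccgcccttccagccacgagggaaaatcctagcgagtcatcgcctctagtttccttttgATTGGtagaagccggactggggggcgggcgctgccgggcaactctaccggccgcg
FDPS: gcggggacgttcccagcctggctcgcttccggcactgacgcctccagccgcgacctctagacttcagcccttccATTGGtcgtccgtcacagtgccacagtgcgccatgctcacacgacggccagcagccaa
MVD: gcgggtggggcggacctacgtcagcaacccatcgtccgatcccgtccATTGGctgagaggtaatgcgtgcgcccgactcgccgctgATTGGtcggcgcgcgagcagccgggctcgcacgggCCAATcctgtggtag
IDI1: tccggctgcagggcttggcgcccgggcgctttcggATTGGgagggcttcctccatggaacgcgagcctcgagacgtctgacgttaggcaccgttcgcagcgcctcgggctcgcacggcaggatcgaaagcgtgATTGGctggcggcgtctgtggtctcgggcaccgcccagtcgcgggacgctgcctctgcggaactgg
They lie at chr5:43313513-43313662 (minus strand), chr1:155308616-155308747 (plus strand), chr16:88663162-88663297 (minus strand) and chr10:1049171-1049369 (minus strand), in that order.

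Over the whole 250 bases and both strands, CCAAT occurred before 7 of the 12 starts, against 32% of the 35116 starts in the table. These starts belong to 6 of the 7 genes, a count that the share per start does not match, as some genes have several starts. The *MVK* start had 5 copies, a number that 0.319% of all starts reached, and *MVD*, *FDPS* and the second *IDI1* start had 3 each, which 2.93% of all starts reached or passed. Of the *IDI1* copies, 2 overlap each other on opposite strands. All 250 bases before the *MVK* start lie in annotated exons, of *MMAB* and *MVK*. Those before the second *IDI1* start all lie in exons of *IDI1*. *HMGCS1* had 2, *GGPS1* had 1 before its second start, and none was found before the *PMVK* start. GGGCGG, the core of the Sp1 box, occurred before 11 of the 12 starts and 42.6% of all starts. Of the letters tried for the sterol element, CACCCCAC, TCACNCCAC, TCANNCCAC and TCGCCCCAC were found before none of the 12 starts, and TCACCCCA only before *MVK*. They occur before 2.43%, 0.883%, 3.14%, 0.396% and 1.29% of all starts, and CACGTG, absent here, before 6.34%. Some of these letters contain one another, so their counts overlap. Such matches describe the letters in these windows.

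*PON1* itself had 0, 2 and 3 counts in the NC libraries and 155, 181 and 167 in the PON1-OE libraries, at least 60.1-fold higher against a floor of 3 counts per library. The library totals were 15706672 to 17948383 estimated counts. The labels call these cells hepatocytes. Of 9 hepatocyte or HCC markers, *KRT8* and *KRT18* were abundant (2410 and 1528 CPM in NC, where CPM is the count scaled to a common library size by TMM), whereas of the 7 secreted hepatocyte proteins *ALB*, *AFP*, *APOA1*, *SERPINA1* and *TTR* lay under 1 CPM in both group means, *FGB* had means of 1.02 in NC and 0.668 in PON1-OE, and *APOB* had 5.77 in NC and 4.49 in PON1-OE (adjusted p = 0.443, edgeR). The summed list ranged from 3654 to 4154 CPM in NC and from 3810 to 4040 CPM in PON1-OE. The leukocyte markers *PTPRC*, *CD3E*, *LYZ* and *MS4A1* were at 0 in all 6 libraries, while the fifth of that list, the lysosomal protein gene *CD68*, had 215 ± 10.4 CPM in the NC group against 235 ± 12.0 in the other (SD, n = 3 each, adjusted p = 0.252, edgeR). The summed leukocyte markers ranged from 206 to 226 CPM in the NC libraries and from 224 to 248 CPM in the others. The summed fibroblast markers ranged from 15.98 to 20.95 CPM in NC and from 16.7 to 20.2 in the PON1-OE libraries, and the summed endothelial markers from 21.9 to 24.6 in NC against 25.1 to 27.8. Of the fibroblast list, *LUM* (13.7 CPM in NC, 13.0 in PON1-OE) and *DCN* (4.27 and 5.10) were expressed and the others lay under 1 CPM. Of the endothelial list, *PECAM1* had 13.1 CPM in NC and 15.1 in PON1-OE, with all PON1-OE libraries above NC (adjusted p = 0.452, edgeR). *KDR* had 9.24 and 10.9, *VWF* lay under 1 CPM and *CDH5* was near 0. The part of these markers in the results was not tested.

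Of the 9 enzymes, *HMGCS1* and *FDPS* were higher in PON1-OE at an adjusted p under 0.05 and none was lower, in a contrast that called 0.677% of all genes tested (0.502% higher and 0.176% lower). The log2 fold change (log2FC) was above 0 in 8 of 9, every gene but *GGPS1*, against 49.0% of all genes, and the median was 0.22 against -0.0025 over all genes tested. The changes were small, from -0.16 to 0.34, and none passed the 1.5-fold threshold of the study's methods, which 0.0502% of all genes passed together with the adjusted p. At an unadjusted p under 0.05 there were 7 higher and 1 lower (5.91% and 5.17% of all genes). Groups did not overlap for 5 of the 9 genes, 4 with PON1-OE above NC and 1 below (16.1% of all genes, 8.32% above and 7.74% below). Since the choice of genes used this contrast, nothing is read from these counts. In bulk RNA a change in the cells present and a change in RNA per cell cannot be told apart.

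**Figure D1:**
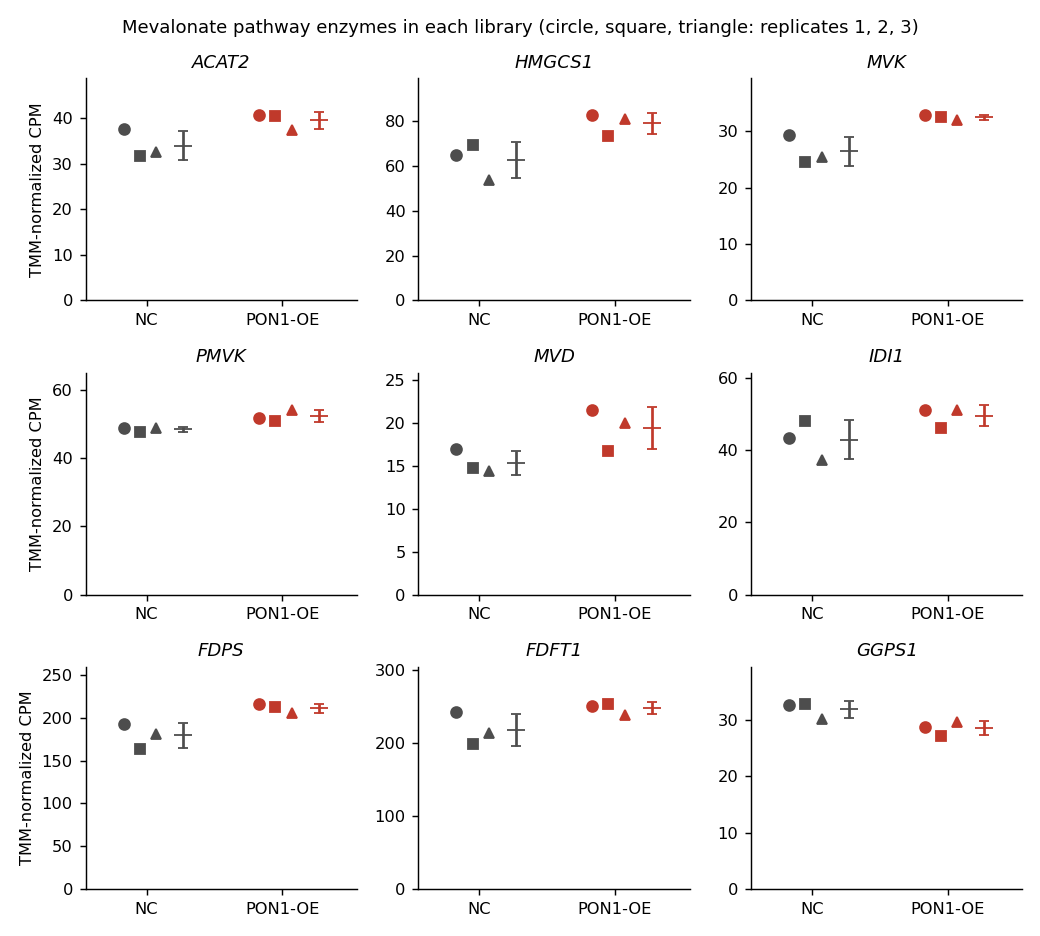
TMM-normalized CPM (y axis, from 0) of the 9 enzyme genes in the 3 NC (grey) and 3 PON1-OE (red) libraries, 1 point per library, with the group mean and SD (n = 3) beside the points. PON1-OE points lie above all NC points for *HMGCS1*, *MVK*, *PMVK* and *FDPS* and below them for *GGPS1*. For each of the other 4 genes, 2 of the 3 PON1-OE points lie above all NC points and 1 lies among them.

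The pathway opens with *ACAT2* (ENSG00000120437, chromosome 6, 159760328 to 159779055, plus strand, GRCh38 as in GENCODE v29), the cytosolic acetyl-CoA acetyltransferase. Its level was 37.6, 31.6 and 32.6 CPM in NC replicates 1 to 3 and 40.5, 40.4 and 37.4 CPM in PON1-OE replicates 1 to 3. The groups overlapped, because PON1-OE replicate 3 lay just under NC replicate 1, and the log2FC of 0.22 (SE 0.0743) did not pass the test (adjusted p = 0.237; edgeR's quasi-likelihood F test, adjusted by Benjamini-Hochberg over all genes tested). On the opposite strand, *ACAT2* shares 1458 exonic bases with *SOD2-OT1* and 1141 with a *SOD2* gene (ENSG00000285441), neither of them analysed here, and 397 with the chaperonin gene *TCP1*. The estimated counts of *ACAT2* were not whole in 6 of 6 libraries, so reads may have been split between genes. *TCP1* had a log2FC of -0.09 (adjusted p = 0.373, edgeR).

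*HMGCS1* (ENSG00000112972, chromosome 5, 43289395 to 43313512, minus strand), the cytosolic HMG-CoA synthase, was at 64.9, 69.4 and 53.8 CPM in NC and at 82.6, 73.5 and 81.0 CPM in PON1-OE. All PON1-OE libraries were above all NC libraries, with NC replicate 3 the lowest of the 6. The gene rose by 26.0%, from 62.7 ± 8.06 to 79.0 ± 4.83 CPM (SD, n = 3 each), a log2FC of 0.33 (SE 0.0726, 95% interval 0.18 to 0.48, adjusted p = 0.0368 in edgeR). The call did not hold in some fits with 1 library left out, whether or not the log2FC fell. Without NC replicate 1 the adjusted p was 0.0919 (log2FC 0.36), and without NC replicate 3 it was 0.260 (log2FC 0.23). Without PON1-OE replicate 1 or 3 it was 0.124 or 0.173 (log2FC 0.30 and 0.32). These fits have fewer libraries and called 11 to 44 genes in all, against 81. Leaving out NC replicate 2 or PON1-OE replicate 2 kept the call (adjusted p = 0.00724 and 0.0227, edgeR). *HMGCS1* shares 703 exonic bases with *AC114947.2* on the opposite strand, which was not analysed here. The library kit is not stated to keep strand, so reads in those bases cannot be assigned to either.

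*MVK* (ENSG00000110921, chromosome 12, 109573255 to 109598117, plus strand) encodes the kinase that phosphorylates mevalonate. It lay at 29.4, 24.5 and 25.5 CPM in NC and, with the smallest relative spread of the 9 genes in PON1-OE, at 32.8, 32.5 and 32.0 CPM. The groups did not overlap, but the log2FC of 0.30 (SE 0.0774, 95% interval 0.14 to 0.46) did not pass the test (adjusted p = 0.0922, edgeR). *MMAB*, a cobalamin adenosyltransferase gene whose start lies 619 bases from that of *MVK* on the opposite strand, had a log2FC of 0.17 (adjusted p = 0.403, edgeR), with its PON1-OE libraries also above its NC libraries. Exons of both genes share 306 bases, and the library kit is not stated to keep strand, so reads in those bases cannot be assigned to either.

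*PMVK* (ENSG00000163344, chromosome 1, 154924734 to 154936991, minus strand), the next kinase, changed least among the 8 genes with a log2FC above 0. NC libraries were at 48.7, 47.5 and 48.9 CPM and PON1-OE libraries at 51.8, 50.8 and 54.1 CPM. Here too the groups did not overlap, as the NC libraries had a coefficient of variation of 1.52%, while the 95% interval of the log2FC (0.11) included 0, from -0.0096 to 0.23 (adjusted p = 0.499, edgeR).

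*MVD* (ENSG00000167508, chromosome 16, 88651935 to 88663161, minus strand), the decarboxylase that yields isopentenyl diphosphate, had the highest log2FC of the 9 but also the lowest counts, 245 to 354 per library. It lay at 17.0, 14.7 and 14.4 CPM in NC and at 21.6, 16.7 and 20.05 CPM in PON1-OE, where replicate 2 fell below NC replicate 1. The log2FC was 0.34 (SE 0.104, adjusted p = 0.175, edgeR). Without PON1-OE replicate 2 it was 0.44 and the adjusted p was 0.0418.

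*IDI1* (ENSG00000067064, chromosome 10, 1039152 to 1049170, minus strand), the isomerase that makes the allylic starter unit, was at 43.2, 48.0 and 37.2 CPM in NC and at 51.1, 46.1 and 51.1 CPM in PON1-OE. NC replicate 2 was above PON1-OE replicate 2, so the groups overlapped. The log2FC was 0.21 (SE 0.078, adjusted p = 0.298, edgeR), and 0.12 without NC replicate 3. *WDR37*, which starts 368 bases away on the opposite strand, had a log2FC of -0.15 (adjusted p = 0.789, edgeR). *IDI2-AS1*, also on the opposite strand, shares 643 exonic bases with *IDI1* and was not analysed here.

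*FDPS* (ENSG00000160752, chromosome 1, 155308748 to 155320666, plus strand), farnesyl diphosphate synthase and the target of the nitrogen-containing bisphosphonates, was at 193, 164 and 181 CPM in NC and at 216, 212 and 206 CPM in PON1-OE. All PON1-OE libraries were above all NC libraries, and NC replicate 2 was the lowest. The gene rose by 17.9%, from 179.5 ± 14.6 to 211.5 ± 5.35 CPM (SD, n = 3 each), a log2FC of 0.24 (SE 0.0489, 95% interval 0.14 to 0.34, adjusted p = 0.0248 in edgeR). *FDPS* shares 693 exonic bases with *RUSC1-AS1* on the opposite strand, which was not analysed here, so reads there cannot be assigned to either. Its estimated count was not whole in 1 of 6 libraries. The *FDPS* call did not hold in some fits with 1 library left out either. The adjusted p was 0.0847 without NC replicate 2 (log2FC 0.18) and 0.138 without NC replicate 3 (log2FC 0.24). It was 0.0864 or 0.0930 when PON1-OE replicate 1 or 3 was left out (log2FC 0.22 and 0.26). The call held without NC replicate 1 or PON1-OE replicate 2 (adjusted p = 0.0145 and 0.0409, edgeR).

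At the branch point, *FDFT1* (ENSG00000079459, chromosome 8, 11795573 to 11839309, plus strand), squalene synthase, was at 242, 198 and 214 CPM in NC and at 251, 253 and 238 CPM in PON1-OE. The groups overlapped, since PON1-OE replicate 3 lay below NC replicate 1. The log2FC was 0.18 (SE 0.0532, 95% interval 0.072 to 0.29, adjusted p = 0.151, edgeR). Without NC replicate 1 it was 0.26 with an adjusted p of 0.0225, whereas without NC replicate 2 it was 0.12 with an adjusted p of 0.367. *FDFT1* shares 217 exonic bases with *AC069185.1* on the opposite strand, which was not analysed here.

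*GGPS1* (ENSG00000152904, chromosome 1, 235327350 to 235344532, plus strand), on the other side of that branch, was the only one of the 9 with a lower mean in PON1-OE. It lay at 32.7, 32.8 and 30.1 CPM in NC and at 28.7, 27.2 and 29.7 CPM in PON1-OE, each PON1-OE library below each NC library. The log2FC was -0.16 (SE 0.0724, 95% interval -0.31 to -0.0097), with an unadjusted p of 0.038 and an adjusted p of 0.415 in edgeR's fit over all genes. *GGPS1* shares 1422 exonic bases with an annotated *TBCE* gene on the same strand (ENSG00000285053), with 0, 9 and 15 counts in the NC libraries and 12, 0 and 6 counts in the others. Its own counts were not whole in 5 of 6 libraries, so its level is uncertain. *ARID4B*, which starts 869 bases away on the opposite strand, had a log2FC of -0.16 (adjusted p = 0.509, edgeR). It shares 138 exonic bases with *GGPS1*, and reads in those bases cannot be assigned to either.

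The ratio of *FDFT1* to *GGPS1* CPM within a library was 7.40, 6.04 and 7.09 for the NC libraries and 8.72, 9.31 and 8.02 for PON1-OE. The ratio of *FDPS* to *GGPS1* was 5.91, 5.00 and 6.01 for NC against 7.53, 7.80 and 6.93. Both ratios were higher in every PON1-OE library than in any NC library. For *FDPS* this follows from its values and those of *GGPS1* given above, neither of which overlapped between groups. *FDFT1* by itself overlapped, and both ratios rest on the uncertain *GGPS1* level, so nothing is read from them. Summed over the 9 genes, the reads came to 709, 631 and 637 CPM in NC and to 776, 753 and 749 CPM in PON1-OE, on average 1.15 times as many. *FDPS* and *FDFT1* carried most of this sum.

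**Figure D2:**
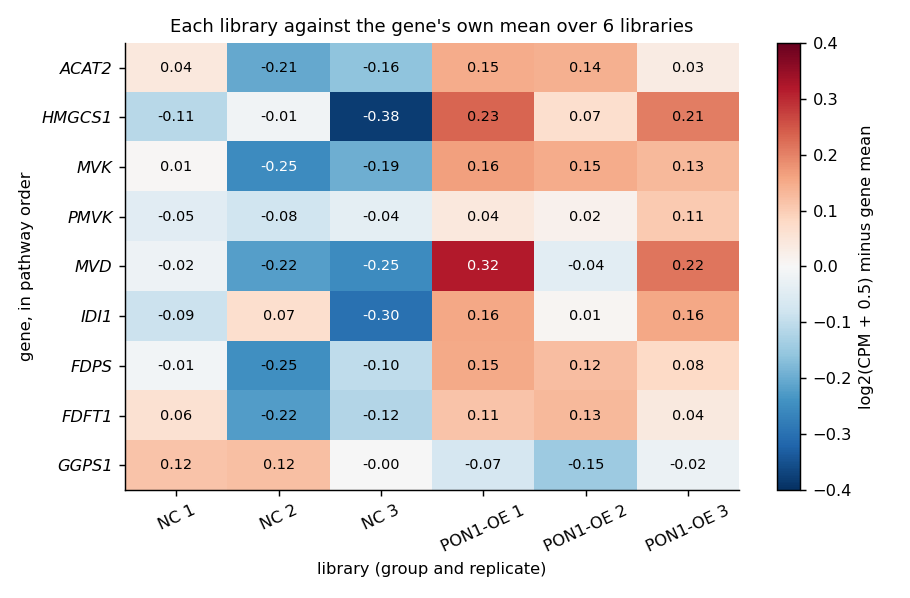
Log2(CPM + 0.5) of each enzyme gene (rows, in pathway order) in each library (columns) minus the gene's mean over the 6 libraries, as colour and number. *GGPS1* is the only gene with all 3 PON1-OE libraries below its mean, NC 3 is lowest for *HMGCS1* (-0.38) and *IDI1* (-0.30), and NC 2 is lowest for *ACAT2*, *MVK*, *FDPS* and *FDFT1*.

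Within a group the genes did not move as a block. NC replicate 2 was the lowest of the 6 libraries for *ACAT2*, *MVK*, *PMVK*, *FDPS* and *FDFT1*, but the highest NC library for *HMGCS1* and *IDI1*, for which NC replicate 3 was the lowest. In PON1-OE, replicate 2 was the lowest of its group for *HMGCS1*, *PMVK*, *MVD*, *IDI1* and *GGPS1*. These genes differ in base composition, with a GC content of 40.2% and 41.1% for the principal transcripts of *HMGCS1* and *IDI1*, 40.4% for *GGPS1*, and 48.6% to 65.6% for the other 6. Over all genes, the 2379 with the lowest GC content (31.75% to 41.31%) lay a median of 0.05 above their own mean in NC replicate 2. They lay 0.09 below it in PON1-OE replicate 2 (log2 scale). For the 2377 with the highest GC content (58.76% to 75.57%) these medians were -0.0265 and 0.045. Of the genes lowest in PON1-OE replicate 2, *HMGCS1*, *IDI1* and *GGPS1* lie in the low range. *PMVK* (59.53%) and *MVD* (65.61%) lie in the high range. Whether GC content caused the differences between libraries in these genes was not tested. With GC content and length taken out of log2 CPM and the genes tested with limma, the log2FC was 0.36 for *HMGCS1* (adjusted p = 0.00981) and 0.22 for *FDPS* (adjusted p = 0.0222). The same limma fit without this correction gave 0.34 (adjusted p = 0.0353) and 0.24 (adjusted p = 0.0261). This correction was chosen after seeing the data.

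Levels were compared between genes per kilobase of the principal transcript, which the choice of genes had not used. In NC, *FDPS* was highest at 121 ± 9.86 CPM per kilobase (SD, n = 3), followed by *FDFT1* at 82.0 ± 8.33, *PMVK* at 37.8 ± 0.573 and *HMGCS1* at 17.9 ± 2.30. The libraries of each of these did not overlap with those of the next gene in the order. *IDI1* at 12.7 ± 1.61, *GGPS1* at 11.02 ± 0.525, *ACAT2* at 10.7 ± 1.01, *MVK* at 9.63 ± 0.937 and *MVD* at 8.42 ± 0.772 CPM per kilobase formed the lower end, where the libraries of each gene overlapped with those of the next. In PON1-OE the first 5 genes kept their places, while *GGPS1* moved from the sixth place to the ninth, at 9.86 ± 0.433 CPM per kilobase, where its libraries overlapped with those of *MVD* (10.7 ± 1.36). With the union of all exons as length *GGPS1* was seventh in PON1-OE. By that length the order in NC was the same. However, the libraries of *FDPS* (48.3) overlapped with those of *FDFT1* (41.9 CPM per kilobase), and those of *FDFT1* with those of *PMVK* (37.8).

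**Figure D3:**
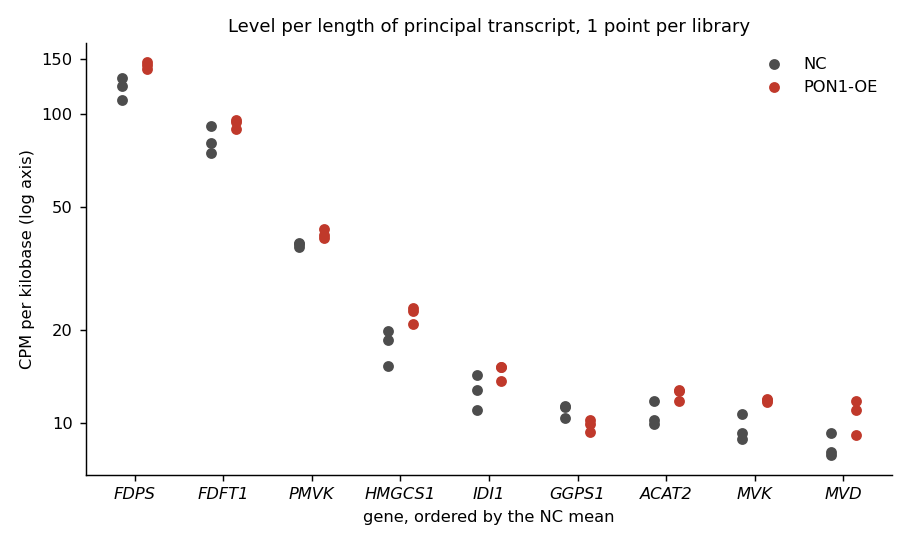
CPM per kilobase of principal transcript (log axis) of each enzyme gene, 1 point per library, in NC (grey) and PON1-OE (red), ordered by the NC mean. *FDPS* and *FDFT1* lie above all others, and the 5 genes on the right lie between 7.88 and 15.2 CPM per kilobase.

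Other genes of sterol and isoprenoid metabolism were counted in lists that had been written with earlier results of these data known, so these counts too are a description. Downstream of squalene, 5 of 12 enzymes rose and none fell (0.502% and 0.176% of all genes tested), with a median log2FC of 0.20 and 11 above 0 (49.0% of all genes). *MSMO1*, the C4-methylsterol oxidase, was at 127, 117 and 105 CPM in NC and 159, 153 and 153 CPM in PON1-OE (log2FC 0.41, adjusted p = 4.15e-04, edgeR). *CYP51A1*, lanosterol demethylase (0.27, adjusted p = 0.0244), *DHCR7*, which makes cholesterol from its last precursor (0.31, adjusted p = 0.0277), *NSDHL* (0.23, adjusted p = 0.0433) and the squalene epoxidase *SQLE* (0.26, adjusted p = 0.04998) followed in the edgeR test. *HSD17B7* (log2FC 0.38, adjusted p = 0.222), *EBP* (0.18, adjusted p = 0.254) and *SC5D* (0.13) did not pass, and *EBP* was at 0.11 without NC replicate 2 and *SC5D* at 0.03 without NC replicate 3. The *SQLE* call was lost with RLE size factors (adjusted p = 0.0508) and DESeq2 (adjusted p = 0.281), and the *NSDHL* call with the replicate block (adjusted p = 0.0516). Leaving out a library gave 1 to 4 calls, namely 4 without the first NC library, 1 without either the third NC or the first PON1-OE library, and 2 without the second NC, the second PON1-OE or the third PON1-OE library. The *MSMO1* call held in all of these.

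**Figure D4:**
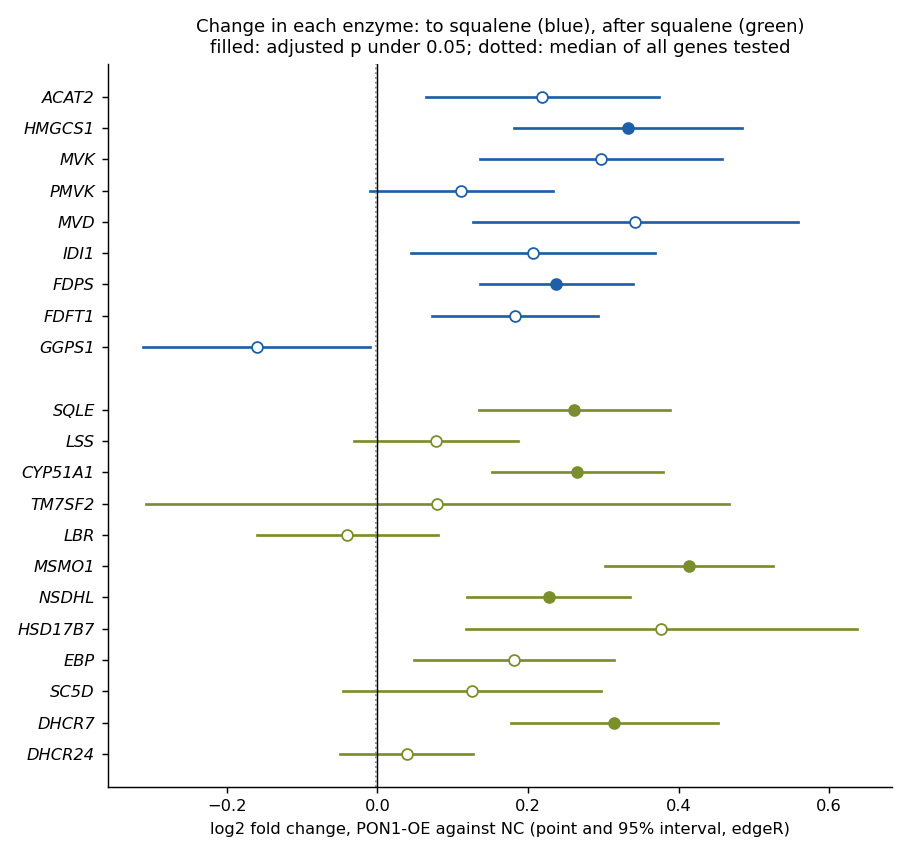
Log2FC of PON1-OE against NC (x axis) with its 95% interval from edgeR for the 9 enzymes to squalene (blue) and the 12 after squalene (green), filled where the adjusted p is under 0.05, with the median of all genes tested as a dotted line. 2 blue and 5 green points are filled, all to the right of 0, and *GGPS1* at -0.16 is the only blue point to the left of 0.

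The genes that control the pathway did not pass the test, which 0.677% of all genes tested passed. None of 10 SREBP control genes was called, 3 had an unadjusted p under 0.05 (11.1% of all genes tested) and the median log2FC was 0.01. *SREBF2*, which encodes SREBP2, was at 127, 120 and 124 CPM in NC and 140, 131 and 130 CPM in PON1-OE (log2FC 0.11, adjusted p = 0.358), *SREBF1* had -0.16 (adjusted p = 0.345), and the sterol-regulated retention factor *INSIG1* 0.29 (adjusted p = 0.130, edgeR). Without NC replicate 1, 1 gene of this list, *INSIG1*, was called (adjusted p = 0.0215, edgeR). None of the 5 tested genes of 6 in the LXR response, the counterpart program switched on by oxysterols, was called, and 3 had an unadjusted p under 0.05, again beside 11.1% of all genes. All 5 log2FC were below 0, as were 6095 of the 11958 genes tested. The median was -0.30, against -0.0025 over all genes tested. The 5 included the cholesterol exporter *ABCA1* (-0.55, adjusted p = 0.270), the receptor gene *NR1H3* (-0.30, adjusted p = 0.351) and *LPCAT3* (-0.19, adjusted p = 0.211, edgeR). Single libraries set part of these values, as *ABCA1* was at -0.29 without PON1-OE replicate 2 and *NR1H3* at -0.16 without PON1-OE replicate 3. *SREBF1* was at -0.11 without NC replicate 1.

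Supply and outlets of the pathway gave no calls either, where 0.677% of all genes tested were called. Of the 3 acetyl-CoA supply genes, *SLC25A1*, the mitochondrial citrate carrier (log2FC 0.14), and *ACSS2* (0.15) had an unadjusted p under 0.05. Over all genes tested, 11.1% had such a p, 5.91% with a higher level in PON1-OE. *ACLY* had a log2FC of 0.04. Among the mitochondrial and ketone body counterparts, *ACAT1*, the mitochondrial thiolase, had a log2FC of -0.02 (adjusted p = 0.929, edgeR), and its sign turned when single libraries were left out. *BDH1* was at or near the floor, and *OXCT1* had no count in any library. The list also held *IDI2*, the counterpart of *IDI1* and not a mitochondrial or ketone body enzyme, which had no count either. None of 18 genes of the prenyl branches, which use farnesyl and geranylgeranyl diphosphate for protein prenylation, dolichol and ubiquinone, was called, 2 had an unadjusted p under 0.05, which is the 11.1% found over all genes, and the median log2FC was 0.01. The lowest p there belonged to the farnesyltransferase subunit *FNTB* (0.20, adjusted p = 0.357), the prenyl protein protease *ZMPSTE24* (-0.14, adjusted p = 0.395) and *PDSS1* (0.50, adjusted p = 0.461, edgeR). Without PON1-OE replicate 3 the log2FC of *PDSS1* was 0.28 and that of *ZMPSTE24* -0.09.

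Across 14 alternatives, the sign of the change did not turn for any of the 9 enzymes, and 8 of 9 were above 0 in each. The size moved more than the sign, from 0.23 to 0.41 for *HMGCS1*, from 0.18 to 0.29 for *FDPS*, from 0.12 to 0.30 for *IDI1* and from -0.20 to -0.13 for *GGPS1*. Removing NC replicate 3 gave the highest adjusted p of the 14 alternatives for *ACAT2*, *HMGCS1*, *MVK*, *MVD*, *IDI1*, *FDPS* and *FDFT1*. This was not particular to these enzymes, as that fit called 11 genes in all, against 81 with all libraries. It also gave the highest adjusted p for *SQLE*, *CYP51A1*, *MSMO1*, *NSDHL* and *DHCR7*.

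**Figure D5:**
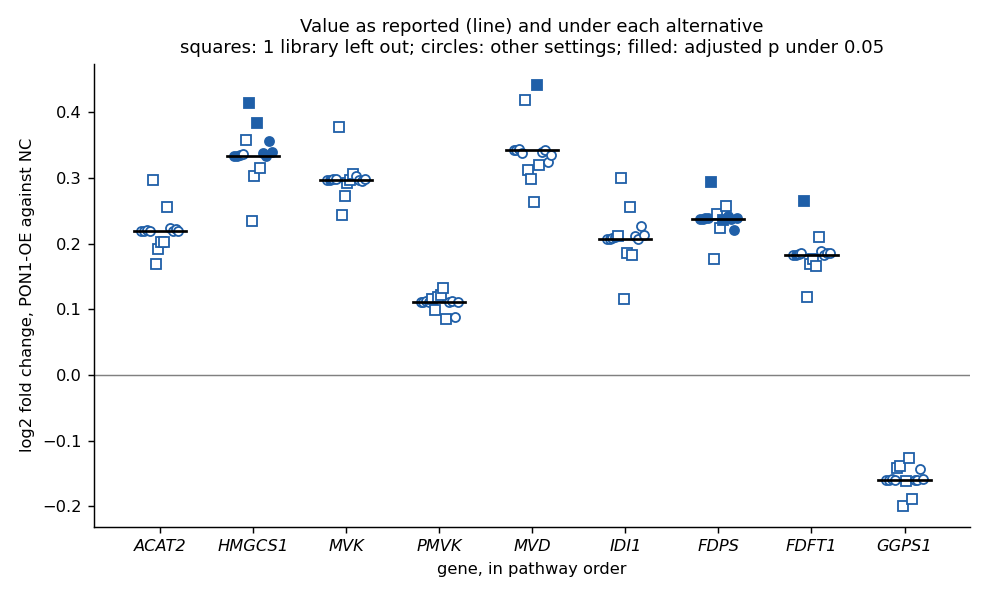
Log2FC of each enzyme gene in the reported fit (black line) and under 14 alternatives (squares, 1 library left out; circles, other settings), filled where the adjusted p is under 0.05. *HMGCS1* spans 0.23 to 0.41 and *FDPS* 0.18 to 0.29, and only *GGPS1* lies below 0.

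The genes outside all lists whose profile over the 6 libraries was most like the mean profile of *HMGCS1* and *FDPS* were *CLCC1*, *CEACAM6* and *SMIM29*. Their root mean square distances from it, on the log2 scale after centring each gene on its own mean, were 0.0364, 0.0374 and 0.0374, against a median of 0.181 for genes outside the lists. These 3 genes were picked as the closest, so their place under the median was fixed by the choice. *CEACAM6* was itself called (adjusted p = 0.0199, edgeR). The other members lay between 0.0653 (*MVK*) and 0.226 (*GGPS1*). The profile came from the 2 enzymes called in the contrast already known, so nothing is read from these distances. *HMGCS1* and *FDPS* each lay 0.0831 from their common mean, and any 2 profiles are equally far from their mean.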

How the data were processed

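RNA-seq of poly(A) RNA was available for 3 PON1-OE and 3 NC libraries of HCCLM3 cells. The authors deposited 1 table of estimated counts per gene (20381 genes, 649 without a symbol), not normalized, and 10.5% of values were not whole. The submitters' processing notes name Bowtie2 2.2.8, HISAT2, StringTie 1.3.1 and DESeq2. The genome build, the annotation and the counting tool are not given in the sources used here. The design had assumed whole counts, so the estimated counts were rounded, which moved a value by at most 0.5.

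In R 4.3.3, edgeR 4.0.16 (filterByExpr, TMM, glmQLFit and glmQLFTest, no covariates) tested 11958 genes, with Benjamini-Hochberg adjustment over all of them and a call at an adjusted p under 0.05. CPM values are TMM-normalized. Totals were 15706672 to 17948383, and a floor of 3 counts was 0.166 to 0.192 CPM, which covers counting error only. Libraries of a group differed by more than sampling noise (chi-square per degree of freedom 2.11 to 4.11). The scripts were tested on simulated counts.

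Coordinates on GRCh38, transcript lengths and GC content came from GENCODE v29 and promoters from RefSeq (GRCh38.p14). The members and lists were chosen with earlier results of these data known. The text names all members, *PON1*, list genes called or with up to 3 of the next lowest p, *SREBF2*, mitochondrial counterparts, head to head or overlapping neighbours and the 3 genes with the most similar profile. Some genes that this rule covers are not reported here. The analysis was repeated with a replicate block, RLE scaling, no low-count filter, a minimum of 10 counts per library, each library left out, limma-voom (limma 3.58.1), DESeq2 1.42.0, a 1.5-fold threshold, unadjusted p, union exon length and, added after seeing the data, a GC content and length correction.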

Additional observations from a re-analysis of the deposited data

How the results depend on the processing

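Of the 9 enzymes, the 2 calls became 4 without a filter on low counts (*HMGCS1*, *MVK*, *FDPS* and *FDFT1*), 0 past 1.5-fold, 8 by unadjusted p under 0.05, and 0 to 3 when a library was left out (0 without the third NC library and without the first or the third PON1-OE library). RLE size factors, at least 10 counts in every library, limma-voom, DESeq2 and the GC content and length correction each called *HMGCS1* and *FDPS*. DESeq2 gave no adjusted p for *MVD*. Over all genes, the 81 calls became 177 without a filter, 6 past 1.5-fold, 1325 at an unadjusted p, and 11 to 103 with a library left out. The 5 post-squalene calls became 4 with RLE size factors or DESeq2 (without *SQLE*) and 4 with the replicate block (without *NSDHL*), 3 with limma-voom, 0 with the 1.5-fold threshold and 1 to 4 with a library left out. SREBP control genes had 1 call without a filter, 3 at an unadjusted p and 0 to 1 with a library left out. At an unadjusted p there were 2 acetyl-CoA supply, 2 prenyl branch and 3 LXR genes. The log2FC of *ACAT1* ranged from -0.060 to 0.025 with a library left out, and was above 0 without NC replicate 3 (0.025) and with PON1-OE replicate 2 removed (0.0038). The cause of these changes was not tested.

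With the replicate number as a block, 1 of the 9 enzymes (*FDPS*) and 40 genes in all were called, and *HMGCS1* had an adjusted p of 0.0604 (edgeR). Deviations of same-numbered libraries correlated by 0.0173, -0.0231 and 0.0205 over genes, so the numbers were not taken to pair the libraries.

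With 3 libraries a group, the 95% interval of the log2FC was widest for *MVD*, the enzyme with the lowest counts (0.13 to 0.56), and narrowest for *FDPS* (0.14 to 0.34).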
